A study of Mus musculus with 6 samples.

Results

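YAP, TEAD and the genes around them were followed through 6 RNA-seq libraries of mouse cells. The set holds 10 genes chosen by name as effectors, DNA-binding partners, regulators and targets of the Hippo pathway: Yap1, Wwtr1, Tead1, Tead2, Tead3, Tead4, Ankrd1, Amotl2, Ajuba and Lats2. Each identifier was matched to its mouse symbol, and all 10 were found among the 22600 genes of the count table with a value in each of the 6 columns. All 10 also passed the filter on low counts and were tested with 15535 genes in all.

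The libraries come from cells of a C57BL/6 background in 4 groups. FLICs, which the labels describe as differentiated ES cells, were sampled after 3 days of OHT (n = 1) and untreated (n = 1). Embryonic stem (ES) cells, which are pluripotent cells of the early embryo kept in culture, were sampled after 3 days of OHT (n = 2) and untreated (n = 2). All groups were cultured for 96 h in 5% CO2 at 37 °C. OHT (hydroxytamoxifen) is an active form of tamoxifen that is used to switch on inducible Cre recombinase. The labels give the OHT-treated cells as TRF2-/- and the untreated cells as wild-type. TRF2 is the telomere-binding protein encoded by Terf2. The labels used here do not name the Cre line or the clone, and they list no OHT-treated cells with intact TRF2, so the agent and the loss of TRF2 cannot be told apart. Total RNA was sequenced from stranded libraries.

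In the Hippo pathway a chain of kinases that ends in LATS1 and LATS2 phosphorylates the coactivators YAP and TAZ and keeps them out of the nucleus. Unphosphorylated YAP and TAZ bind TEAD proteins on DNA and raise the expression of genes for growth, cytoskeleton and matrix. Several of these targets, among them Lats2 and Amotl2, encode inhibitors of YAP, so the pathway contains its own negative feedback. In the early mouse embryo TEAD4 with YAP directs the outer cells to trophectoderm, and YAP is kept out of the nucleus of inner cells. Transcript levels do not show where YAP or TAZ is in the cell.

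Library totals ran from 23534551 to 43965309 counts, and a count of 0 would allow 0.0682 to 0.127 CPM (counts scaled to library size) in a library, from 3 counts and for counting error only. Terf2 had 0.114 CPM in FLICs with OHT against 8.27 CPM in untreated FLICs, and 0.281 and 0.392 CPM in ES cells with OHT against 18.3 and 19.5 CPM in untreated ES cells. The 8 ES cell markers summed to 83.9 CPM in FLICs with OHT and 122 CPM in untreated FLICs, against 3443 to 4013 CPM in the 4 ES cell libraries. Smooth muscle markers, led by Acta2 and Tagln, summed to 9592 and 7280 CPM in the FLICs libraries and to 90.2 to 104 CPM in the ES cell libraries. Of the 8, 6 lay above all ES cell libraries in both FLICs libraries, while Myh11, at 0.275 and 0.309 CPM in FLICs, and Des, at 2.54 and 1.08 CPM, lay below them. Fibroblast markers summed to 8667 and 5904 CPM in FLICs and 1128 to 1939 CPM in ES cells, and Fn1 made up most of the sum in every library. In FLICs, 7 of the 10 fibroblast markers reached 1 CPM, while Lum, Pdgfra and Thy1 stayed below it. These 7 lay above all ES cell libraries in both FLICs libraries, while Pdgfra and Thy1 lay below them and Lum overlapped. Fewer cells of a type and less RNA per cell cannot be told apart in such bulk samples. Separate cultures are not stated for libraries of the same group, so each p-value reflects only how far these particular libraries differ, which may be technical.

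The promoter sequences were searched for GGAATG, the core of the element bound by TEAD proteins, and for its reverse complement CATTCC. The windows are those of RefSeq on GRCm38.p6, from 250 bases before to 50 bases after each annotated start. Of the 10 genes, 8 had a window, and 7 of these 8 held the motif on either strand in at least 1 window. Tead2 had no match, and Tead1 and Tead4 are named only. Over all RefSeq genes with a window, 4481 of 27025 (16.6%) held it, as did 14.7% of all windows. Among the other YAP and TEAD targets described further on, 3 of 14 (21.4%) held it. These matches describe letters in a window and are no evidence of binding, and no match says only that these letters are not in that window. Short stretches around the motif are shown to compare the flanks of the 2 coactivator genes with those of the targets Ankrd1 and Amotl2. The capitals mark the motif, and the sequences run 5′ to 3′ on the strand of the gene.
Yap1: ggagtctgcaGGAATGtagcgacgcg
Wwtr1: taaactcaaaGGAATGcagataggcg
Ankrd1, distal: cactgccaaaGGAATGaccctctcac
Ankrd1, proximal: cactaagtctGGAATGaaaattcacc
Amotl2: gaaactctcaCATTCCtggcatagca

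The Yap1 stretch lies at chr9:8004722-8004747 on the minus strand with its motif 141 bases before the start, and the Wwtr1 stretch at chr3:57576031-57576056 on the minus strand, 136 bases before the first of its annotated starts. Neither overlaps a gene in GENCODE M21. The Ankrd1 stretches lie at chr19:36120039-36120064 and chr19:36119952-36119977 on the minus strand, 210 and 123 bases before the RefSeq start. The Amotl2 stretch lies at chr9:102717729-102717754 on the plus strand, 65 bases before the RefSeq start. GENCODE M21 places the starts of Ankrd1 and Amotl2 further upstream, so these 3 stretches fall inside an untranslated exon there.

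For the feedback kinase gene Lats2 and for Ajuba, longer windows are shown, from 250 bases before to 20 bases after the start, because their base composition differs while both hold the motif. The Ajuba window, at chr14:54577642-54577911 on the minus strand, holds 2 copies on the opposite strand, 186 and 164 bases before the start. It has 51.5% G and C and 9 CpG pairs and overlaps no annotated gene. The Lats2 window, at chr14:57746104-57746373 on the minus strand, holds 1 copy that begins 5 bases into the transcript. It has 72.2% G and C and 32 CpG pairs, and in GENCODE M21 it lies within Lats2, with only its last 20 bases in an exon.
Ajuba: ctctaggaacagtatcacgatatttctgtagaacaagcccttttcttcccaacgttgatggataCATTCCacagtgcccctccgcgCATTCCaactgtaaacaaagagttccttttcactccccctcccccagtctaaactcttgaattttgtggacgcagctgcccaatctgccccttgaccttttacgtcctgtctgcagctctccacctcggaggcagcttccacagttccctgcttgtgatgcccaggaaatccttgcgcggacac
Lats2: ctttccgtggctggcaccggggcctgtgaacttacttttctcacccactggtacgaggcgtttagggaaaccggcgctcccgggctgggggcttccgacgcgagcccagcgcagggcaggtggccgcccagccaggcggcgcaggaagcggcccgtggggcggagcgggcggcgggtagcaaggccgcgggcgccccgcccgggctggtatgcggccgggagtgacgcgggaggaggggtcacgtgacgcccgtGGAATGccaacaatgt

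**Figure D1:**
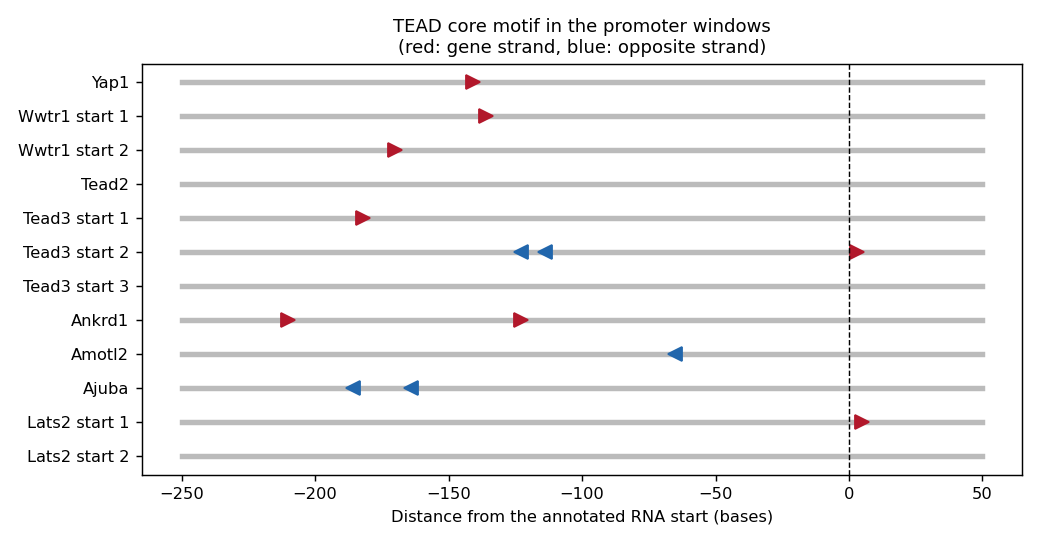
Position of the TEAD core motif in the RefSeq promoter windows of the 8 genes that have one. Each grey line is 1 window, the x axis is the distance in bases from the annotated start, and triangles mark motifs on the gene's strand (red) or the opposite strand (blue). Matches lie at different distances, from 210 bases before the start in Ankrd1 to 5 bases after it in Lats2, and the Tead2 window holds none.

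The levels of the genes relative to each other were compared per length as TPM, the counts per kilobase of deposited length scaled to the same total in every library. In FLICs with OHT the order was led by Ankrd1 at 218 TPM, Amotl2 at 187 TPM and Tead2 at 186 TPM, and in untreated FLICs by Tead2 at 195 TPM, Amotl2 at 184 TPM and Ankrd1 at 181 TPM. With 1 library per condition, no spread is known for these neighbours. In ES cells the order was led by Yap1 and Ajuba, at 126 ± 15.1 and 96.3 ± 13.9 TPM with OHT and at 126 ± 2.37 and 99.1 ± 0.231 TPM untreated (SD, n = 2 each). Ajuba and Amotl2 overlapped within the OHT-treated ES cells, at 106 and 86.5 TPM for Ajuba and 90.9 and 83.7 TPM for Amotl2. Tead2 and Amotl2 overlapped in untreated ES cells, at 73.1 and 73.8 TPM for Tead2 and 70.7 and 76.1 TPM for Amotl2. Tead2, Wwtr1, Tead4 and Tead1, in this order by mean, each overlapped the next in OHT-treated ES cells. Lats2 and Ankrd1 closed the order in ES cells, at 1.31 ± 0.0349 and 0.939 ± 0.0629 TPM with OHT and at 1.04 ± 0.062 and 0.118 ± 0.0142 TPM untreated (SD, n = 2 each). Ankrd1 thus held rank 10 in both ES cell groups and ranks 1 and 3 in FLICs with OHT and untreated FLICs.

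**Figure D2:**
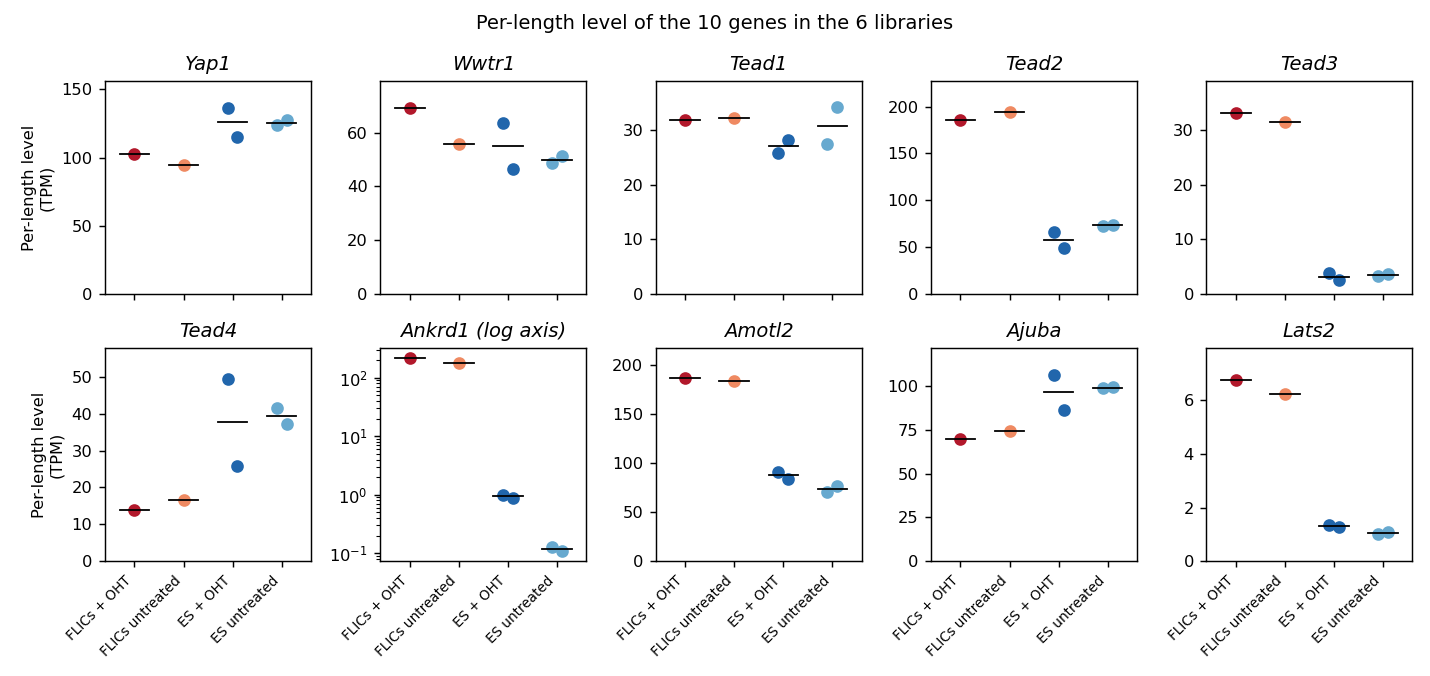
Per-length level (TPM) of each of the 10 genes in every library. Points are libraries, black lines are group means, and axes start at 0 except for Ankrd1, which has a log axis. Tead2, Tead3, Ankrd1, Amotl2 and Lats2 lie higher in both FLICs libraries than in all 4 ES cell libraries, and Yap1, Tead4 and Ajuba lie lower.

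The first comparison set FLICs against ES cells, the differentiated against the pluripotent state, once between untreated cells and once between OHT-treated cells. In both, the targets Ankrd1, Amotl2 and Lats2 and the TEAD genes Tead2 and Tead3 were higher in FLICs and Tead4 was lower, while Yap1, Wwtr1, Tead1 and Ajuba were not called. The 2 contrasts share no library, but they share 1 estimate of spread, and both assume that a single FLICs library varies like the ES cell libraries. Calls are at an adjusted p of 0.05 in edgeR. Of the 10 genes, 5 rose and 1 fell in each contrast. Among all genes tested, 28.4% were called higher and 29.3% lower in FLICs with OHT against ES cells with OHT, and 26.2% higher and 28.7% lower in untreated FLICs against untreated ES cells. The median log2 fold change of the 10 genes was 0.82 with OHT and 0.81 untreated, beside -0.07 and -0.11 over all genes. In CPM, 8 of the 10 genes did not overlap between both FLICs and the 4 ES cell libraries, beside 76.1% of all genes.

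Neither coactivator gene was called between the cell states in the main fit. Yap1 (ENSMUSG00000053110, chr9:7931999-8004596) encodes YAP. It had 127 CPM in FLICs with OHT and 118 CPM in untreated FLICs, against 156 and 134 CPM in ES cells with OHT and 150.4 and 147 CPM in untreated ES cells. Both FLICs values lay below all 4 ES cell values. The fitted log2 fold change was -0.19 (95% interval -0.63 to 0.24, adjusted p = 0.387) with OHT and -0.34 (-0.78 to 0.10, adjusted p = 0.155) untreated. Wwtr1 (ENSMUSG00000027803, chr3:57455649-57575910) encodes TAZ. It had 78.0 CPM in FLICs with OHT and 62.8 CPM in untreated FLICs, against 65.8 and 49.2 CPM in ES cells with OHT and 53.5 and 54.1 CPM in untreated ES cells. Its groups overlapped, with log2 fold changes of 0.44 (-0.08 to 0.96, adjusted p = 0.120) with OHT and 0.22 (-0.30 to 0.75, adjusted p = 0.402) untreated. In the contrast with OHT, Wwtr1 was called at 0.66 without OHT-treated ES cell replicate 1, and Yap1 at -0.31 without replicate 2. Those fits had 1 OHT-treated ES cell library and called most of all genes tested in this contrast. A p above the threshold does not show that the levels were alike. Without OHT-treated ES cell replicate 1 or 2, Yap1 was called lower in untreated FLICs at a nearly identical value (adjusted p = 0.00869 and 0.0149), in fits that called 78.4% of all genes each. Per length, Yap1 exceeded Wwtr1 in every library, 1.48 times in FLICs with OHT and 1.70 times in untreated FLICs, against 2.15 and 2.48 times in ES cells with OHT and 2.55 and 2.47 times in untreated ES cells.

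The TEAD genes, whose proteins carry YAP and TAZ to DNA, diverged from one another. Tead3 (ENSMUSG00000002249, chr17:28331671-28350817) had 40.2 CPM in FLICs with OHT and 38.3 CPM in untreated FLICs, against 4.31 and 2.82 CPM in ES cells with OHT and 3.91 and 4.21 CPM in untreated ES cells. The FLICs values lay far above every ES cell value, and the fold was 11.2 (log2 3.49 ± 0.27 SE, adjusted p = 0.000252) with OHT and 9.42 (log2 3.24 ± 0.27 SE, adjusted p = 0.000319) untreated. Tead2 (ENSMUSG00000030796, chr7:45215753-45233644) is prominent in the early embryo. It had 206 CPM in FLICs with OHT and 216 CPM in untreated FLICs, against 67.9 and 50.6 CPM in ES cells with OHT and 79.2 and 76.3 CPM in untreated ES cells. Its groups did not overlap, and it was 3.48-fold higher with OHT (adjusted p = 0.00104) and 2.78-fold higher untreated (adjusted p = 0.00232). The exons of Tead2 overlap those of Cd37 on the opposite strand, and it is not stated whether strand was used in counting. Cd37 had 8 and 5 counts in the FLICs libraries and 115 to 180 in the ES cell libraries, beside 1290 or more for Tead2.

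Tead4 (ENSMUSG00000030353, chr6:128224288-128300823), the TEAD gene of trophectoderm formation, moved the other way. It had 14.7 CPM in FLICs with OHT and 17.7 CPM in untreated FLICs, against 48.4 and 25.9 CPM in ES cells with OHT and 43.2 and 37.0 CPM in untreated ES cells. The FLICs values lay below all 4 ES cell values, but the OHT-treated ES cell replicates stood further from each other than replicate 2 stood from FLICs. Its log2 fold change was -1.34 ± 0.39 SE (adjusted p = 0.0301) with OHT and -1.18 ± 0.39 SE (adjusted p = 0.0458) untreated. The untreated call was lost without untreated ES cell replicate 1 (-1.06, adjusted p = 0.108) and without replicate 2 (-1.29, adjusted p = 0.0605). Tead1 (ENSMUSG00000055320, chr7:112679318-112906807) had 34.5 CPM in FLICs with OHT and 35.1 CPM in untreated FLICs, against 25.8 and 28.7 CPM in ES cells with OHT and 29.1 and 34.7 CPM in untreated ES cells. It was not called, at 0.34 (-0.13 to 0.81, adjusted p = 0.172) with OHT and 0.14 (-0.34 to 0.61, adjusted p = 0.568) untreated. Without OHT-treated ES cell replicate 2 it was called with OHT, at 0.40, in a fit that called most of all genes tested.

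As shares of the summed TEAD level per length, Tead2 took the largest share everywhere, 70.2% in FLICs with OHT and 70.8% in untreated FLICs, against 45.7% and 46.2% in ES cells with OHT and 50.3% and 49.5% in untreated ES cells. Tead4 had a share of 5.2% in FLICs with OHT and 6.0% in untreated FLICs, against 33.9% and 24.6% in ES cells with OHT and 28.6% and 25.0% in untreated ES cells. Tead3 had 12.5% and 11.5% in FLICs with OHT and untreated FLICs, against 2.3% to 2.7% in the 4 ES cell libraries. Tead4 came second in 3 of the 4 ES cell libraries, and Tead1 came second in OHT-treated ES cell replicate 2, with 26.8% against 24.6% for Tead4. In FLICs, Tead4 was last. The 4 genes together reached 265 TPM in FLICs with OHT and 275 TPM in untreated FLICs, against 146 and 105 TPM in ES cells with OHT and 145 and 149 TPM in untreated ES cells. Set against the sum of Yap1 and Wwtr1, this was 1.54 and 1.83 TEAD transcripts per coactivator transcript in FLICs with OHT and untreated FLICs, against 0.729 and 0.65 in ES cells with OHT and 0.842 and 0.834 in untreated ES cells. The sum of the coactivators overlapped between the states, at 172 and 151 TPM in FLICs and 162 to 200 TPM in ES cells. These shares and ratios are descriptions with no test.

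**Figure D3:**
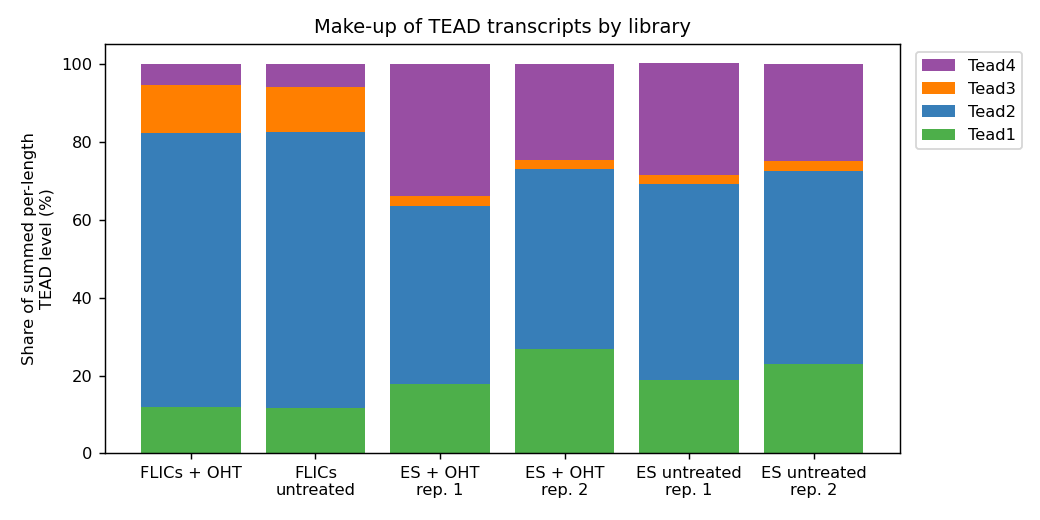
Share of each TEAD gene in the summed per-length TEAD level of a library, in percent, with 1 stacked bar per library. Tead2 makes up 70.2% to 70.8% of the bar in FLICs and 45.7% to 50.3% in ES cells, and the Tead4 segment is 5.2% to 6.0% in FLICs and 24.6% to 33.9% in ES cells.

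Among the targets in the set of 10, Ankrd1 (ENSMUSG00000024803, chr19:36111961-36120099) differed most. It encodes a cardiac ankyrin repeat protein of the sarcomere and nucleus and is widely used as a readout of YAP and TEAD. It had 173 CPM in FLICs with OHT and 144 CPM in untreated FLICs, against 0.718 and 0.667 CPM in ES cells with OHT and 0.0993 and 0.0799 CPM in untreated ES cells. The untreated ES cell values rest on 3 counts each. The ratio of FLICs with OHT over ES cells with OHT was 249 (95% counting interval 183 to 349, from 7561 against 40 counts). The ratio of untreated FLICs over untreated ES cells was 1624 (745 to 4427, from 4656 against 6 counts). In the fit it was called in both contrasts (adjusted p = 4.07e-05 with OHT and 3.87e-05 untreated). Of 10 cardiac and skeletal muscle markers, Acta1 made up most of the sum of 235 and 183 CPM in FLICs with OHT and untreated FLICs, against 85.3 to 121 CPM in ES cells. In both FLICs libraries, Acta1, Nkx2-5 and Tnnt2 lay above all ES cell libraries, 6 of the 10 lay below them and Nppa overlapped. The cardiac factor gene Nkx2-5 had 11.7 CPM in each FLICs library against 0.453 to 1.37 CPM in ES cells, and the troponin gene Tnnt2 had 6.27 CPM in FLICs with OHT and 9.20 CPM in untreated FLICs against 0.132 to 0.588 CPM in ES cells. The cardiac myosin genes Myh6 and Myl7 had at most 0.37 CPM in either FLICs library, against 5.78 CPM or more in ES cells. The part of the smooth muscle and fibroblast markers that move with Ankrd1, and of Acta1, Nkx2-5 and Tnnt2, was not tested.

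Lats2 (ENSMUSG00000021959, chr14:57689662-57758388), the feedback kinase, had 19.8 CPM in FLICs with OHT and 18.2 CPM in untreated FLICs, against 3.59 and 3.53 CPM in ES cells with OHT and 2.85 and 2.95 CPM in untreated ES cells. It was 5.56-fold higher with OHT (log2 2.47 ± 0.20 SE, adjusted p = 0.000304) and 6.27-fold higher untreated (log2 2.65 ± 0.20 SE, adjusted p = 0.000256). It shares exons on the same strand with the gene model Gm49361, which had 0 counts in every library. Amotl2 (ENSMUSG00000032531, chr9:102716672-102733418) encodes an angiomotin-family protein that holds YAP at junctions. It had 387 CPM in FLICs with OHT and 381 CPM in untreated FLICs, against 173 and 163 CPM in ES cells with OHT and 143 and 147 CPM in untreated ES cells. The groups did not overlap, and it was 2.31-fold higher with OHT (adjusted p = 0.00169) and 2.63-fold higher untreated (adjusted p = 0.00103).

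Ajuba (ENSMUSG00000022178, chr14:54567472-54577558) encodes a LIM protein that binds and restrains LATS kinases. It had 94.8 CPM in FLICs with OHT and 101 CPM in untreated FLICs, against 133 and 110.5 CPM in ES cells with OHT and 132 and 126 CPM in untreated ES cells. Both FLICs values lay below all 4 ES cell values, but no call was made (-0.36, -0.82 to 0.10, adjusted p = 0.144 with OHT and -0.35, -0.81 to 0.11, adjusted p = 0.155 untreated). Without OHT-treated ES cell replicate 2, Ajuba was called with OHT, at -0.50, in a fit that called most of all genes tested. As with Yap1, leaving out either OHT-treated ES cell library made it a call untreated (adjusted p = 0.0054 and 0.00978), in the same fits with 78.4% of all genes called.

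**Figure D4:**
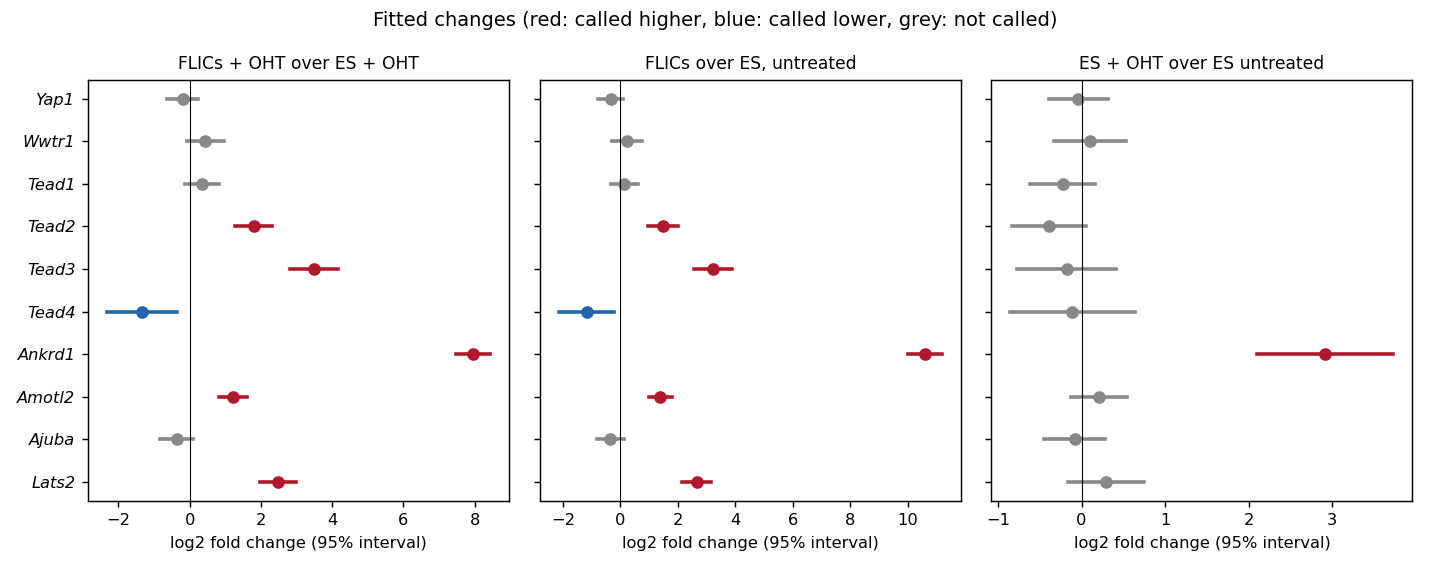
Fitted log2 fold changes of the 10 genes with 95% intervals in 3 contrasts, with different x scales. Red points were called higher, blue lower and grey not called. The same 5 genes are red in both FLICs contrasts, and Ankrd1 is the only coloured point for OHT in ES cells, at 2.92.

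The second comparison asked how the genes responded to OHT within ES cells. Ankrd1 was the only one of the 10 called, and none fell. Among all genes, 83 of 15535 (0.534%) were called. Ankrd1 averaged 0.692 ± 0.0362 CPM in ES cells with OHT and 0.0896 ± 0.0138 CPM in untreated ES cells (SD, n = 2 each), from 23 and 17 counts against 3 and 3. The fitted log2 fold change was 2.92 ± 0.33 SE (95% interval 2.10 to 3.73, adjusted p = 0.0376), and the ratio of summed counts was 7.85 (counting interval 3.31 to 22.7). Even with OHT the level in ES cells stayed at the 0.667 to 0.718 CPM given above, far under that of FLICs. The call was lost without untreated ES cell replicate 1 (adjusted p = 0.219), without replicate 2 (adjusted p = 0.323) and in a fit of the 4 ES cell libraries alone (adjusted p = 0.0583), with log2 fold changes of 2.76 to 3.06. The 7 markers of a 2-cell-like state, such as Zscan4c and Zscan4d, summed to 167 and 129 CPM in ES cells with OHT against 10.1 and 10.5 CPM in untreated ES cells, so they moved with Ankrd1. Their part in the Ankrd1 value was not tested.

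Among the other 9 genes, Amotl2 and Lats2 lay higher in both OHT-treated ES cell libraries than in both untreated ones, and Tead1 and Tead2 lay lower, without a call. With Ankrd1, 5 of the 10 did not overlap, beside 52.8% of all genes. Amotl2 averaged 168 ± 7.3 CPM in ES cells with OHT and 145 ± 2.77 CPM in untreated ES cells (SD, n = 2 each), with a log2 fold change of 0.21 (-0.12 to 0.54, adjusted p = 0.443). Lats2 averaged 3.56 ± 0.0422 CPM with OHT and 2.90 ± 0.0762 CPM untreated (SD, n = 2 each), with 0.29 (-0.16 to 0.75, adjusted p = 0.427). Tead2 averaged 59.2 ± 12.2 CPM with OHT and 77.7 ± 2.05 CPM untreated (SD, n = 2 each), with -0.39 (-0.83 to 0.05, adjusted p = 0.311). Tead1 gave -0.23 (-0.62 to 0.16, adjusted p = 0.475). Yap1, at -0.04 (-0.39 to 0.32, adjusted p = 0.915), and Wwtr1, at 0.10 (-0.33 to 0.53, adjusted p = 0.800), had intervals that span 0, as did Tead3, Tead4 and Ajuba. The direction of Yap1 turned under relative log expression scaling (0.01).

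The OHT-treated ES cell replicates differed in several of these genes. Tead4 had 48.4 CPM in replicate 1 and 25.9 CPM in replicate 2, and Tead3 had 4.31 and 2.82 CPM. Without replicate 1, 4 of the 10 genes were called, with Tead2 (-0.62), Tead3 (-0.52) and Tead4 (-0.63) lower beside Ankrd1. Without replicate 2, 3 were called, with Wwtr1 (0.33) and Tead4 (0.31) higher beside Ankrd1. Those fits called 40.2% of all genes without replicate 1 and 28.7% without replicate 2, and the members' counts of 4 and 3 of 10 are near these shares. The sign of Tead4 turned with the library left out.

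In FLICs, OHT was described without a test, since each condition has 1 library. None of the 10 genes differed by 2-fold or more on the log2(CPM + 1) scale, while so did 0.526% of the 11789 genes that averaged 1 CPM or more. The largest differences were 0.31 for Wwtr1, 0.27 for Ankrd1 and -0.25 for Tead4. Ankrd1 was at 7561 counts in FLICs with OHT and 4656 counts in untreated FLICs, a ratio of 1.20 after scaling (1.16 to 1.25, counting error only). The other 7 lay between -0.09 (Ajuba) and 0.11 (Lats2).

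The difference between both responses to OHT was tested as an interaction, FLICs minus ES cells. None of the 10 genes was called in edgeR, and 0% of all genes were. At an unadjusted p under 0.05 edgeR had 1057 genes, and DESeq2 called 20, none of the 10. For Ankrd1 the difference was -2.65 ± 0.39 SE (95% interval -3.60 to -1.70, unadjusted p = 5.38e-04, adjusted p = 0.638), and its adjusted p was 0.105 in DESeq2. Without OHT-treated ES cell replicate 1 or 2, the edgeR call was made (adjusted p = 0.000631 and 6.95e-05), also with Tead2 (0.55) without replicate 1 and Tead4 (-0.57) without replicate 2, where 18.3% and 13.4% of all genes were called. The other 9 differences ran from -0.19 (Amotl2) to 0.32 (Tead2).

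The genes upstream of YAP were described as a list of 19, the Hippo kinase core and its activators, of which all were tested. In FLICs with OHT against ES cells with OHT, 9 rose and 3 fell, with a median log2 fold change of 0.52. In untreated FLICs against untreated ES cells, 8 rose and 2 fell, with a median of 0.32. In both directions together that is 12 and 10 of 19, close to the 57.7% with OHT and 54.9% untreated of all genes called. The count between untreated cells was 6 of 19 without either untreated ES cell library, when 34.6% and 34.8% of all genes were called. Fat4 and Dchs1, a pair of giant cadherins that feed into the pathway, led the list. Fat4 had 18.6 CPM in FLICs with OHT and 10.9 CPM in untreated FLICs, against 0.25 and 0 CPM in ES cells with OHT and 0.0993 and 0.107 CPM in untreated ES cells. Its counting ratio was 134 (67.7 to 311) with OHT and 106 (50.8 to 265) untreated. With at most 8 counts in any ES cell library, Fat4 passed the filter on low counts through FLICs only and could not have been called lower. Dchs1 had 44.4 CPM in FLICs with OHT and 31.2 CPM in untreated FLICs, against 0.629 to 0.967 CPM in ES cells, a log2 fold change of 5.53 with OHT and 5.38 untreated (adjusted p = 5.43e-05 and 5.54e-05). Nf2, which encodes the membrane scaffold merlin, fell, with 82.3 CPM in FLICs with OHT and 91.4 CPM in untreated FLICs, against 170.0 to 211 CPM in ES cells (-1.17, adjusted p = 0.00369 with OHT, and -1.19, adjusted p = 0.00369 untreated). Rassf1, a scaffold of the upstream kinases, rose 2.36-fold with OHT and 3.78-fold untreated (adjusted p = 0.00393 and 0.000824).

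With OHT in ES cells none of these 19 genes was called in edgeR. An unadjusted p under 0.05 was found for 4, beside 2841 of all 15535 genes. DESeq2 called 1, Rassf1, beside 2.54% of all genes. Rassf1 had 31.9 and 24.9 CPM in ES cells with OHT against 13.6 and 12.1 CPM in untreated ES cells, which do not overlap (1.14, adjusted p = 0.0700). It was called without OHT-treated replicate 1 or 2, with no filter and in DESeq2 (adjusted p from 1.38e-22 to 0.0356). Without OHT-treated replicate 1, 12 of the 19 were called, 11 of them lower, beside 40.2% of all genes called and 20.3% called lower. Without replicate 2, 3 were called, 1 of them lower, beside 28.7% and 13.9% of all genes. The median of the list was -0.20, beside -0.01 over all genes, and 3 of the 19 values were positive.

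Of 19 cofactors and inhibitors of YAP and TEAD, 7 rose and 3 fell in FLICs with OHT against ES cells with OHT, and 8 rose and 3 fell between untreated cells, with medians of 0.24 and 0.13. These 10 and 11 of 19 are close to the 57.7% and 54.9% of all genes called. Amot, the founding angiomotin and a relative of Amotl2, had 133 CPM in FLICs with OHT and 135 CPM in untreated FLICs, against 3.18 and 2.82 CPM in ES cells with OHT and 5.06 and 7.56 CPM in untreated ES cells. It rose 44.1-fold with OHT and 21.3-fold untreated (adjusted p = 6.95e-05 and 0.000104). Fhl2, a LIM-domain coactivator, had 87.4 and 73.1 CPM in FLICs with OHT and untreated FLICs against 0.331 to 0.506 CPM in ES cells (7.82 and 7.41 on the log2 scale, adjusted p = 4.07e-05 and 3.87e-05). Vgll3, a cofactor that competes for TEAD, rose 5.67-fold with OHT and 4.35-fold untreated (adjusted p = 0.000412 and 0.000781). Sfn, the epithelial 14-3-3 protein sigma, fell to 4.62 CPM in FLICs with OHT and 2.99 CPM in untreated FLICs, against 110.0 to 136 CPM in ES cells (-4.80 and -5.36, adjusted p = 7.96e-05 and 6.67e-05). With OHT in ES cells edgeR called none of the 19. At an unadjusted p under 0.05 there were 2, beside 2841 of all 15535 genes. DESeq2 called 1, Amot, beside 2.54% of all genes. The log2 fold change of Amot was -1.07 in edgeR (adjusted p = 0.129) and -1.02 in DESeq2 (adjusted p = 0.0166). Amot was also called without OHT-treated replicate 1 or 2 (adjusted p = 6.42e-08 and 2.61e-06), and the count of called genes was then 6 and 5 of 19, beside 40.2% and 28.7% of all genes.

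Of 24 other YAP and TEAD targets, 23 were tested, and 18 rose and 3 fell in FLICs with OHT against ES cells with OHT. Between untreated cells, 17 rose and 2 fell. Foxf2 and Rbms3, with at most 2 counts in any ES cell library, passed the filter on low counts through FLICs only. They are among the genes that rose and could not have been called lower. Over all genes, 28.4% were called higher and 29.3% lower with OHT, and 26.2% and 28.7% untreated. The medians were 2.40 and 2.44, beside -0.07 and -0.11 over all genes. Thbs1, the matrix protein thrombospondin-1, had 1340 CPM in FLICs with OHT and 1050 CPM in untreated FLICs, against 2.75 and 6.67 CPM in ES cells with OHT and 0.927 and 1.81 CPM in untreated ES cells (8.17 and 9.56 on the log2 scale, adjusted p = 0.000181 and 0.000145). Axl, a receptor tyrosine kinase, had 473 and 538 CPM in FLICs with OHT and untreated FLICs against 1.89 to 2.24 CPM in ES cells (7.80 and 8.02, adjusted p = 4.07e-05 and 3.87e-05). Ccdc80, a secreted matrix protein, rested on 3 counts in untreated ES cells, and its counting ratio for untreated FLICs was 1514 (517 to 7348). Rbms3, an RNA-binding protein, rested on 2 counts there, with a ratio of 270 (74.0 to 2241).

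With OHT in ES cells edgeR called none of the 23 targets. Of these, 9 had an unadjusted p under 0.05, beside 2841 of all 15535 genes. DESeq2 called 4, all higher, beside 1.95% of all genes called higher and 0.588% called lower. The median was 0.16, beside -0.01 over all genes, and 17 of the 23 values were positive. Ccn1 and Ccn2, named here after their values were seen, encode the matricellular proteins CYR61 and CTGF that are the usual YAP readouts beside Ankrd1. Against ES cells both were called higher in FLICs, Ccn1 at 3.21 with OHT and 4.23 untreated, and Ccn2 at 0.79 and 1.405. The Ccn2 call with OHT was lost without untreated ES cell replicate 1 or 2, at 0.79 in each fit. Ccn1 had 68.8 and 123 CPM in ES cells with OHT against 37.2 and 44.8 CPM in untreated ES cells, which do not overlap (1.22, adjusted p = 0.149). Ccn2 had 121 and 152 CPM in ES cells with OHT against 66.7 and 66.2 CPM in untreated ES cells (1.04, adjusted p = 0.0700). DESeq2 called both (adjusted p = 0.000891 and 7.38e-06), as did edgeR without OHT-treated replicate 1 or 2, when 10 and 12 of the 23 targets were called, 8 and 9 of them higher, beside 40.2% and 28.7% of all genes called and 19.9% and 14.9% called higher. Thbs1 gave 1.74 (adjusted p = 0.182) and was called at 2.24 without OHT-treated replicate 1 (adjusted p = 2.5e-21) and at 1.001 without replicate 2 (adjusted p = 0.000723). In FLICs, OHT left 20 of 22 targets within 2-fold, while 0.526% of the 11789 genes at 1 CPM or more on average passed it. Areg, an EGF-family ligand, had 3.07 CPM in FLICs with OHT against 7.75 CPM in untreated FLICs.

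**Figure D5:**
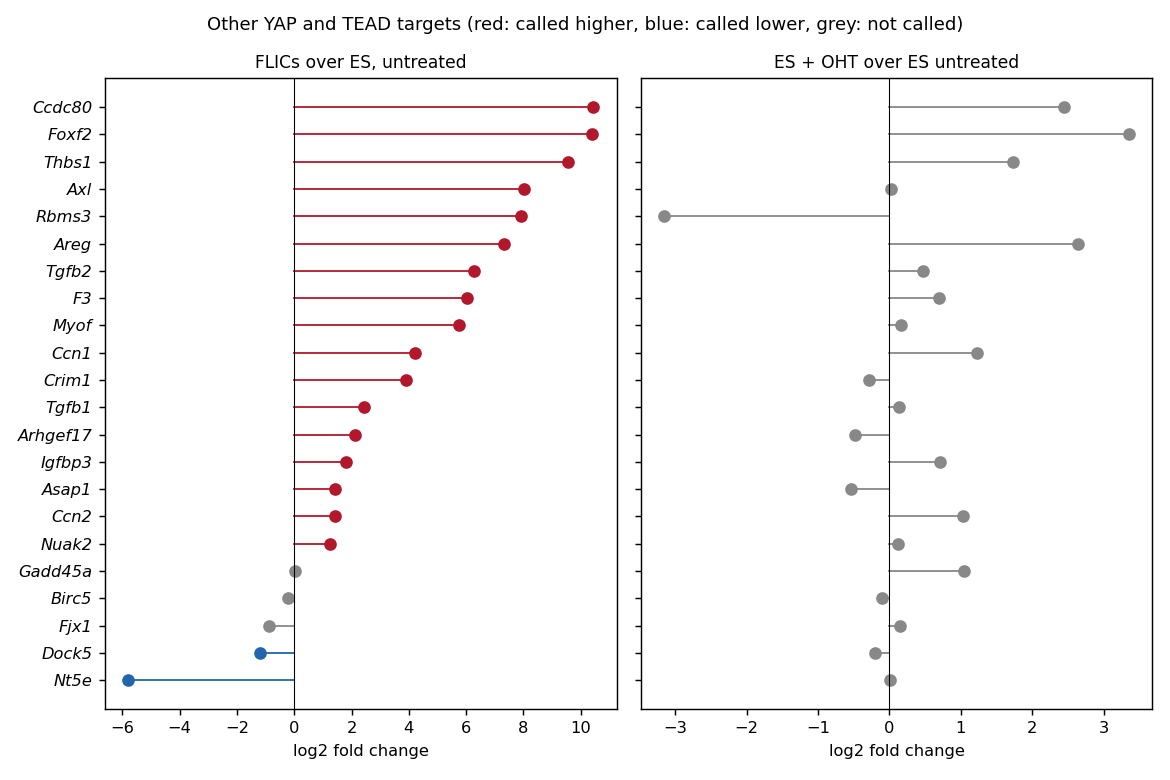
Fitted log2 fold changes of 22 of the 23 tested YAP and TEAD targets outside the 10 genes, in untreated FLICs over untreated ES cells and in ES cells with OHT over untreated ES cells. Red was called higher, blue lower and grey not called. In FLICs 17 points are red and 2 blue, and no point is coloured for OHT in ES cells. Foxf2, Ccdc80, Areg and Rbms3 rest on few counts in ES cells.

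The genes that act with TEAD4 in trophectoderm made a list of 8. In FLICs, 5 fell and 2 rose in both contrasts, with medians of -3.40 with OHT and -2.83 untreated, beside -0.07 and -0.11 over all genes. Over all genes, 29.3% were called lower and 28.4% higher with OHT, and 28.7% and 26.2% untreated. Tfap2c, which encodes AP-2 gamma, had 0.32 and 0.278 CPM in FLICs with OHT and untreated FLICs, against 38.2 to 50.9 CPM in ES cells (-7.18 and -7.16, adjusted p = 5.4e-05 and 5.69e-05). Eomes, a T-box factor, had 1.10 and 1.02 CPM in FLICs, against 40.8 and 23.4 CPM in ES cells with OHT and 50.2 and 37.3 CPM in untreated ES cells (-4.87 and -5.42, adjusted p = 0.000669 and 0.000555). The 2 that rose were Fgfr2, the receptor for FGF signals (4.31 and 4.56, adjusted p = 0.000417 and 0.00037), and Gata3, a GATA factor also used outside trophectoderm (1.84 and 2.83, adjusted p = 0.00499 and 0.00113). The trophoblast markers, which share 4 genes with this list, summed to 45.4 and 49.3 CPM in FLICs and 48.5 to 64.7 CPM in ES cells, with Tpbpa at 0 in every library. Gata3 made up most of the FLICs sums, at 42.3 and 46.8 CPM, against 5.46 to 14.6 CPM in ES cells. In both FLICs libraries Ascl2, Cdx2, Elf5 and Eomes lay below all ES cell libraries, while Gata3 and Prl3d1 lay above them. Prl3d1 rested on 3 counts in FLICs with OHT and 6 in untreated FLICs, against 0 in every ES cell library.

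With OHT in ES cells, 1 of the 8 was called, Krt18, a keratin of simple epithelia. It had 43.7 and 42.0 CPM in ES cells with OHT against 15.4 and 18.5 CPM in untreated ES cells (1.34, adjusted p = 0.0414). The call was lost without untreated ES cell replicate 1 (1.21) or 2 (1.47), in fits with 1 untreated ES cell library, while DESeq2 also called Krt18. The median of the 8 log2 fold changes was 0.47, beside -0.01 over all genes, and 7 were positive. At an unadjusted p under 0.05 edgeR had 4 of the 8, beside 2841 of all 15535 genes. In FLICs Krt18 had 33.6 CPM with OHT against 16.1 CPM untreated, past 2-fold, and the difference between the responses to OHT was not called for any of the 8 (edgeR, 1 at an unadjusted p under 0.05, and 0 by DESeq2).

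Profiles over the 6 libraries were compared as log2(CPM + 1) centred on each gene's mean, by Euclidean distance to 10462 genes at 5 CPM or more on average. Nearest to Ankrd1 were Olfml2b (0.315), Cthrc1 (0.499) and Timp2 (0.575), all of which encode secreted proteins. Nearest to Tead3 were Nab1 (0.221), Flna (0.233) and Rhobtb3 (0.249), and nearest to Lats2 were Stx2 (0.133), Zfp948 (0.138) and Atp6ap1 (0.154). Nearest to Tead2 were Myo5a (0.144), Kcnh2 (0.159) and D430042O09Rik (0.175). The distances follow the contrast of FLICs with ES cells for the most part and say nothing of shared control.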

How the data were processed

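The authors deposited whole-number read counts per gene, not normalized, with gene lengths. Of these lengths, 77.6% were multiples of 3, as were those of 9 of the 10 genes. Salmon, DESeq2 and the build GRCm38 appear in the submitters' processing notes. For their roles, the annotation and the use of strand, nothing is stated in the labels. Symbols were matched for 22509 of 22600 identifiers, and positions are from GENCODE M21 on GRCm38.

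Groups follow the labels. CPM use TMM-scaled library sizes. The main test was edgeR 4.0.16 (quasi-likelihood, filterByExpr by group, 1 mean per group over 6 libraries, Benjamini-Hochberg, calls at 0.05) in R 4.3.3 with limma 3.58.1. In simulated data of 15535 genes for OHT in ES cells, 8.09% of calls were false. Of 150 planted changes at each fold, 49.3% of the 2-fold and 94% of the 4-fold ones were recovered. For untreated FLICs against untreated ES cells, 10.5% of calls were false, and 24% of 2-fold and 84% of 4-fold changes were recovered. Each of the 3 simulated sets held 200 changed genes and otherwise gave every library the mean ES cell level. In the data, 54.9% of genes were called between untreated FLICs and untreated ES cells, so these rates may not hold for that contrast. Both shares of false calls lie above the one that the threshold of 0.05 aims at. The test had 2 residual degrees of freedom, all from ES cells, and 3.79 prior degrees of freedom. Intervals use a t distribution on 5.79 degrees of freedom, and counting intervals are exact binomial ones at 95%. FLICs with and without OHT were compared on log2(CPM + 1). Alternatives were DESeq2 1.42.0, relative log expression scaling, no filter, 5 CPM in 2 libraries, each ES cell library left out, a replicate term, ES cell libraries only, and pseudocounts of 0.25 and 5.

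The genes and lists were chosen with earlier results of these data known. From each list, up to 4 genes at 5 CPM or more with the largest called change in untreated FLICs against untreated ES cells are named, and every gene called for OHT in ES cells. Settings for lists outside the 10 genes were added after seeing the data. For 1 gene of the target list, values are not reported here.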

Additional observations from a re-analysis of the deposited data

How the results depend on the processing

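Ankrd1, Tead2, Tead3, Amotl2 and Lats2 were called higher in both FLICs contrasts under every setting tried. The number of the 10 genes called was 6 in each FLICs contrast of the main fit. When single ES cell libraries were left out, it rose only in fits that also called a larger share of all genes. The number fell only in fits that called a smaller share, so these shifts are not particular to the 10 genes. For OHT in ES cells it was 1, ran from 0 to 4 without single libraries and was 0 with the ES cell libraries only. For the difference in OHT response it was 0, and ran from 0 to 2 without single libraries. Whether ES cell replicates of the same number belong together is not stated, and the main fit did not pair them. Differences between replicates 1 and 2 correlated across the 2 ES cell groups at 0.345 over genes, from 2 pairs. A shared origin of same-numbered replicates can thus not be excluded. With the replicate block the number called was 1 for OHT in ES cells, 6 in each FLICs contrast and 0 for the difference. Over all genes the block raised the calls for OHT in ES cells to 1206 and for the difference to 17. These 10 genes keep their counts there. With the block, which called 7.76% of all genes for OHT in ES cells, 6 of the 23 other targets were called, all higher and among them Ccn1, Ccn2 and Thbs1 (adjusted p = 0.00146, 0.00206 and 0.000329). So were 2 of the 19 genes upstream of YAP, among them Rassf1 (1.13, adjusted p = 0.00103), 1 of the 19 cofactors, Amot (-1.04, adjusted p = 0.0093), and 3 of the 8 trophectoderm genes.

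Over all genes, 83 were called for OHT in ES cells, 262 with no filter, 46 at 5 CPM, 148 with ES cell libraries only, 371 by DESeq2, and 18 to 6165 without single libraries. The difference in OHT response gave 0, 20 by DESeq2 and up to 2804 without single libraries. Untreated FLICs gave 8532, and 5375 and 5391 without untreated ES cell replicates 1 and 2. The causes were not tested.

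Directions turned for values near 0. For OHT in ES cells Yap1 gave 0.01 with relative log expression scaling, 0.036 at 5 CPM and 0.01 in DESeq2. Without single libraries it ran from -0.147 to 0.104, Wwtr1 from -0.127 to 0.328, Tead3 from -0.523 to 0.121, Tead4 from -0.628 to 0.311 and Ajuba from -0.221 to 0.081. For the difference in OHT response, Ajuba gave 0.024 with no filter. Without single libraries Wwtr1 ran from -0.013 to 0.44, Tead3 from -0.049 to 0.592, Tead4 from -0.575 to 0.361 and Ajuba from -0.171 to 0.128. Between FLICs with and without OHT, Amotl2 gave -0.007 under relative log expression scaling. Depth limits Ankrd1 in untreated ES cells, with 3 counts a library.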
